A study of Mus musculus with 15 samples.

Results

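Protocadherins are cadherin-related adhesion molecules of the cell surface, and their genes were examined here across the cell types of the mouse prefrontal cortex (PFC). All genes whose symbol starts with Pcdh were taken, which gave 36 of the 26145 genes in the deposited single cell count tables. Of these, 24 lie in the gene clusters on chromosome 18 (2 Pcdha, 21 Pcdhb and 1 Pcdhg gene as the files name them) and 12 lie outside them. The 12 were the delta-1 genes Pcdh1, Pcdh7, Pcdh9 and Pcdh11x, the delta-2 genes Pcdh8, Pcdh10, Pcdh17, Pcdh18 and Pcdh19, and Pcdh12, Pcdh15 and Pcdh20.

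The study profiled PFC cells of male C57BL/6N mice by droplet-based single cell RNA sequencing and asked how expression in each cell type differs between adolescence and adulthood, and after cocaine. There were 3 libraries of P21 mice (3 weeks old) and 12 libraries of P60 mice (8 to 10 weeks old). The P60 mice self-administered saline or cocaine through a jugular catheter and were taken in the maintenance phase, after 48 h of withdrawal or after 15 d of withdrawal, with 2 libraries for each treatment and Period. By the paper the catheter surgery was at P60, so these mice were older than P60 when taken. The labels give 8 to 10 weeks for every Period. Tissue of 2 mice was pooled in a library, and since the methods give 4 mice for P21, some P21 libraries may share an animal. The P21 mice had neither surgery nor lever training, whereas the saline mice had both, so age and procedure cannot be told apart, and the labels name no sequencing batch, so age and sequencing run cannot be told apart either. The same saline libraries served the age and the cocaine comparisons. The tissue field of the labels names the nucleus accumbens, while titles and source names give the PFC.

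Protocadherins bind their own kind on neighboring cells. Each mature transcript of the Pcdha and Pcdhg clusters joins 1 variable first exon, read from its own promoter, to exons shared by the whole cluster, whereas a Pcdhb gene is a single coding exon. Which promoter is used differs from cell to cell and is set with the help of CTCF and cohesin, and in neurons the resulting surface code serves self-avoidance of neurites. The protocadherins outside the gene clusters are expressed by cell type, and several signal to the cytoskeleton: Pcdh10, Pcdh17 and Pcdh19 recruit the WAVE complex, and Pcdh8, also called arcadlin, is induced by neuronal activity and drives the internalization of N-cadherin.

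The promoters of Pcdh7 and Pcdh17 are shown because both genes sit among the members with the largest differences by age and cell type below. The 250 bases before the start site were read from RefSeq (GRCm38.p6), at chr5:57717831-57718080 and chr14:84443313-84443562, both on the plus strand, with each CCAAT or its complement ATTGG in capitals, of which Pcdh17 has 2 and Pcdh7 has 0.
Pcdh7: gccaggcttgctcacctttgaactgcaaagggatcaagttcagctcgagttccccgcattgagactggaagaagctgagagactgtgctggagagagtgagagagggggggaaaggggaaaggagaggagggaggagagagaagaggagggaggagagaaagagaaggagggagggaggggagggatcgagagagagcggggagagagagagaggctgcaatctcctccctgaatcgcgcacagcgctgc
Pcdh17: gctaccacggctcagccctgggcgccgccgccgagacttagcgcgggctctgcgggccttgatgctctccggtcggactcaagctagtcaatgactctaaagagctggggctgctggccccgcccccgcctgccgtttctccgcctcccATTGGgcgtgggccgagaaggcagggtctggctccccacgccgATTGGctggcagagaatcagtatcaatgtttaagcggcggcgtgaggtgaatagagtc
Promoters of 9 members were matched, none from the clusters, and windows of 300 bases were searched on both strands, from 250 before to 50 after the start. CCAAT was found in 8 of the 9 genes, all but Pcdh7, against 37.4% of all 32851 promoters. The GC box GGGCGG was found in 4 of 9 (35.7% of all), TATAAA in 2 of 9 (13.6%) and CACGTG in 0 of 9 (7.15%). The median GC content was 62.3% for the members and 52.7% for all promoters. These matches describe letters in a window and not sites in use.

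Counting of transcript 3′ ends decides what the clustered symbols measure. In the mm9 annotation the gene listed as Pcdha4 spans chr18:37089939-37347311 on the plus strand with 10 transcripts, that is the whole alpha cluster, and Pcdhga9 spans chr18:37833989-38001527 with 10 transcripts, the whole gamma cluster. Their values are therefore taken as the summed output of each cluster, not of 1 isoform. The Pcdhb genes lie between them, from 37424652 to 37681073. The end of Pcdhb21 lies within 300 bases of Pcdhb22, so reads of these neighbors may be split between them, and that of Pcdhb19 lies within 300 bases of Pcdhb20, which is not among the genes analysed here. Levels are given as CPM, the UMIs of a gene scaled to a common total per library, with no scaling by length. They are compared mainly within a gene across cells. Where genes are set side by side, CPM describe the UMIs counted and no more.

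The tables held 35360 annotated cells, 24822 of P60 and 10538 of P21, with 8375172 to 42892922 UMIs per library. The 8 cell classes used here are the families of the authors' fine clusters: excitatory neurons (Exc), inhibitory neurons (Inhib), astrocytes (Astro), endothelial cells (Endo), microglia, oligodendrocyte precursors (OPC), newly formed oligodendrocytes (NF Oligo) and oligodendrocytes (Oligo). The summed markers of each class were highest in the class they name, but Endo also carried mural markers (Pdgfrb, Rgs5, Vtn and Acta2 summed to 6335 CPM at P60, against 5194 CPM for Flt1, Cldn5 and Pecam1). Of 34602 distinct barcodes, 747 occurred in more than 1 library. No replicate pair held identical values, and all 9 pairs differed by more than sampling noise (chi-square per degree of freedom 3.68 to 45.9). P21 library 1 stood apart, at 45.9 and 40.2 against the other P21 libraries, which were the closest pair (3.68). Without it 13 pairs of member and class were called by age where 7 were called with it, and 52 pairs of member and fine cluster in place of 38. Values below are means ± SD over those libraries that had 10 or more cells in the class.

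Across the classes at P60, the members peaked in different classes. In 6 members the libraries of the highest class did not overlap with those of the next: Pcdh15 and Pcdhga9 in OPC, Pcdh1 in Endo, Pcdh7 in NF Oligo, and Pcdh8 and Pcdha4 in Inhib. That is 16.7% of the 36 members, where the same held for 11.9% of the 20574 genes with a UMI. These levels are descriptions, because the classes were made from the same counts.

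**Figure D1:**
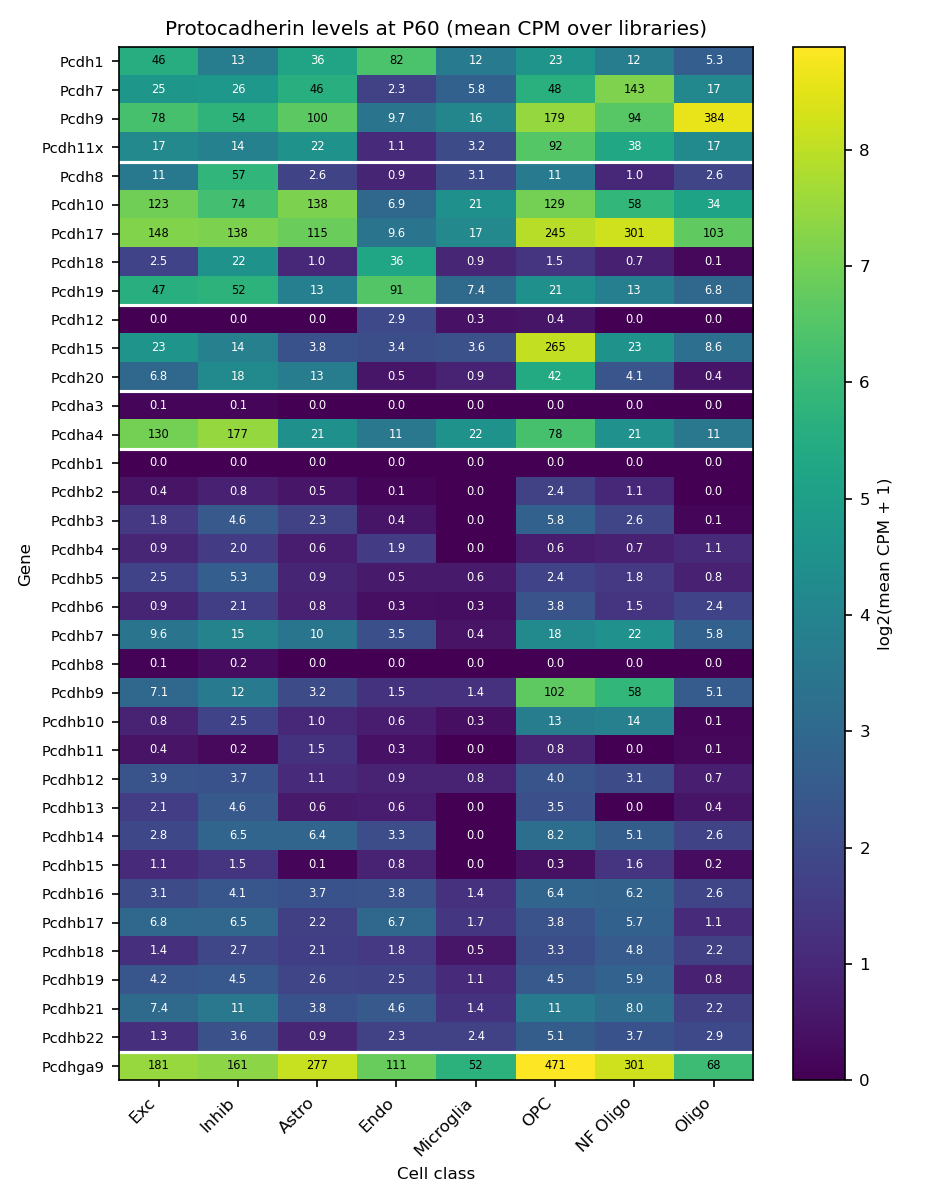
Level of the 36 protocadherin genes (rows) in the 8 cell classes (columns) at P60, as the mean CPM over libraries on a log color scale. Pcdha4 is highest in neurons and Pcdhga9 in OPC, most Pcdhb genes are low, and Pcdh15 (265 CPM in OPC), Pcdh9 (384 CPM in Oligo) and Pcdh1 (82.3 CPM in Endo) peak in other classes.

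Among the delta-1 genes, Pcdh1 was highest in Endo at 82.3 ± 13.2 CPM (62.6 to 103.9, n = 12), followed by Exc at 45.6 ± 6.04 CPM. Pcdh7, whose cytoplasmic tail binds a protein phosphatase, was highest in NF Oligo at 143 ± 31.2 CPM (n = 11), above OPC (48.3 ± 12.3 CPM) and Oligo (16.6 ± 10.6 CPM). Pcdh9 peaked at the next stage of that lineage. It reached 384 ± 55.1 CPM in Oligo (255.9 to 454.6, n = 12) and 179 ± 40.7 CPM in OPC (119.9 to 267.1), and its lower 93.5 ± 46.0 CPM in NF Oligo overlapped with the OPC range. Pcdh11x, on the X chromosome, was highest in OPC at 92.2 ± 52.0 CPM and lay at 17.1 ± 2.15 CPM in Exc.

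The delta-2 genes divided between neurons, vessels and glia. Pcdh8 was highest in inhibitory neurons, at 56.6 ± 15.6 CPM in Inhib (38.9 to 92.7) against 11.4 ± 8.23 CPM in OPC and 10.99 ± 3.56 CPM in Exc. Pcdh10 was even across Astro (138 ± 18.04 CPM), OPC (129 ± 33.1 CPM) and Exc (123 ± 7.65 CPM), 3 classes whose ranges overlapped, and stood at 6.89 ± 6.24 CPM in Endo. Pcdh17 was broad as well, with 245 ± 67.4 CPM in OPC, 148 ± 36.9 CPM in Exc and 138 ± 45.6 CPM in Inhib. Its mean of 301 ± 278 CPM in NF Oligo was raised by 1 library, cocaine maintenance 1 at 1038 CPM, where 3 of 21 cells held 73.9% of the Pcdh17 UMIs, and was 228 ± 139 CPM without it (79.9 to 459.1, n = 10). The top 3 cells of the other P60 libraries held from 37.9% to 100% of these UMIs, the 100% being of 5 UMIs. Pcdh19, whose human counterpart is an epilepsy gene on the X chromosome, was highest in Endo at 90.7 ± 11.52 CPM, above 52.4 ± 24.2 CPM in Inhib and 46.9 ± 5.33 CPM in Exc, although the Endo and Inhib ranges overlapped. Pcdh18 was seen mainly in Endo and Inhib, with 36.3 ± 7.36 CPM in Endo and 21.8 ± 12.0 CPM in Inhib, and stood at 2.45 CPM or lower elsewhere.

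Of the remaining genes outside the clusters, Pcdh15, known for the tip links of inner ear hair cells, was highest in OPC with 265 ± 52.4 CPM (194.1 to 358.5, n = 11) against 23.5 ± 2.68 CPM in Exc. After each cell was thinned to 2000 UMIs, 35.6% of OPC and 0.345% of microglia held a Pcdh15 UMI (54.9% and 0.553% unthinned, median depths 3405 and 3214 UMIs). The same measure for Pcdh9 gave 46.8% of Oligo and 0.553% of microglia. Pcdh20 was highest in OPC too (42.2 ± 15.4 CPM), with 17.6 ± 12.7 CPM in Inhib. Pcdh12, an endothelial protocadherin, was seen in Endo at only 2.91 ± 2.55 CPM at P60, and the libraries of Inhib, Astro, NF Oligo and Oligo had no UMI of it.

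Within the clusters, Pcdha4 was highest in neurons, at 177 ± 23.1 CPM in Inhib (152.2 to 224.4) and 130 ± 8.77 CPM in Exc (117.8 to 146.4), against 22.3 ± 21.6 CPM in microglia and 10.8 ± 8.19 CPM in Endo. Pcdhga9 was highest in OPC at 471 ± 69.5 CPM (385.0 to 595.0), with 301 ± 44.6 CPM in NF Oligo, 277 ± 25.3 CPM in Astro, 181 ± 12.2 CPM in Exc and 51.7 ± 30.1 CPM in microglia. At 2000 UMIs per cell 54.9% of OPC and 4.56% of microglia held a Pcdhga9 UMI (74.7% and 9.25% unthinned). The neuronal gene Snap25 measured 490 ± 435 CPM in microglia, and its part in the microglial values of either gene was not tested. In OPC, NF Oligo, Astro and Oligo the alpha cluster stood at 78.2 ± 29.4, 21.4 ± 19.0, 20.7 ± 21.5 and 10.7 ± 9.77 CPM. The mean of Pcdhga9 in Oligo was 67.7 ± 19.6 CPM, so this gene was above its Exc level in OPC, NF Oligo and Astro and below it in Oligo.

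The 21 Pcdhb genes were low individually. In Exc they ranged from 0.010 to 9.57 CPM with a median of 1.79 CPM, 7 of them below 1 CPM, and the 4 above 5 CPM were Pcdhb7 (9.57 CPM), Pcdhb21 (7.37 CPM), Pcdhb9 (7.10 CPM) and Pcdhb17 (6.80 CPM). Summed over the 21 genes, the Pcdhb cluster gave 58.3 ± 2.71 CPM in Exc, 92.3 ± 14.3 CPM in Inhib and 199 ± 61.4 CPM in OPC. Pcdhb9, a part of this sum, reached 102 ± 44.3 CPM in OPC and 58.5 ± 32.8 CPM in NF Oligo. At 2000 UMIs per cell, 89.7% of excitatory neurons held no Pcdhb UMI, 9.75% held 1 Pcdhb gene and 0.561% held 2 or more. In microglia 99.2% held none, and the part of free RNA in these values was not tested. In OPC 68.8% held none. With all UMIs kept, 13.52% of excitatory neurons held 2 or more of these genes and the most in a cell was 5, so the number of Pcdhb genes found per neuron rose with the UMIs kept. Pcdhb1 had 1 UMI, Pcdhb8 had 8 and Pcdha3 had 26 in all cells together.

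Finer clusters separated the genes outside the clusters further. The authors' annotation (L2_clusters) splits the excitatory neurons into 26 clusters, all of which had at least 3 P60 libraries of 10 or more cells. Pcdh17 stood at 540 ± 124 CPM in Exc_21 (416.8 to 791.4, n = 12), above every library of the other 25 excitatory clusters, where the next was Exc_19 at 234 ± 64.2 CPM and the lowest Exc_11 at 23.9 ± 21.1 CPM. Exc_21 carried the layer 5 markers Tshz2 (2099 CPM) and Etv1 (705 CPM). In the same cluster Pcdh11x was at its lowest, 1.65 ± 2.27 CPM, while Exc_1, high in the layer 2/3 markers Calb1 (316 CPM) and Cux2 (120 CPM), held the most Pcdh11x at 72.9 ± 26.9 CPM.

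**Figure D2:**
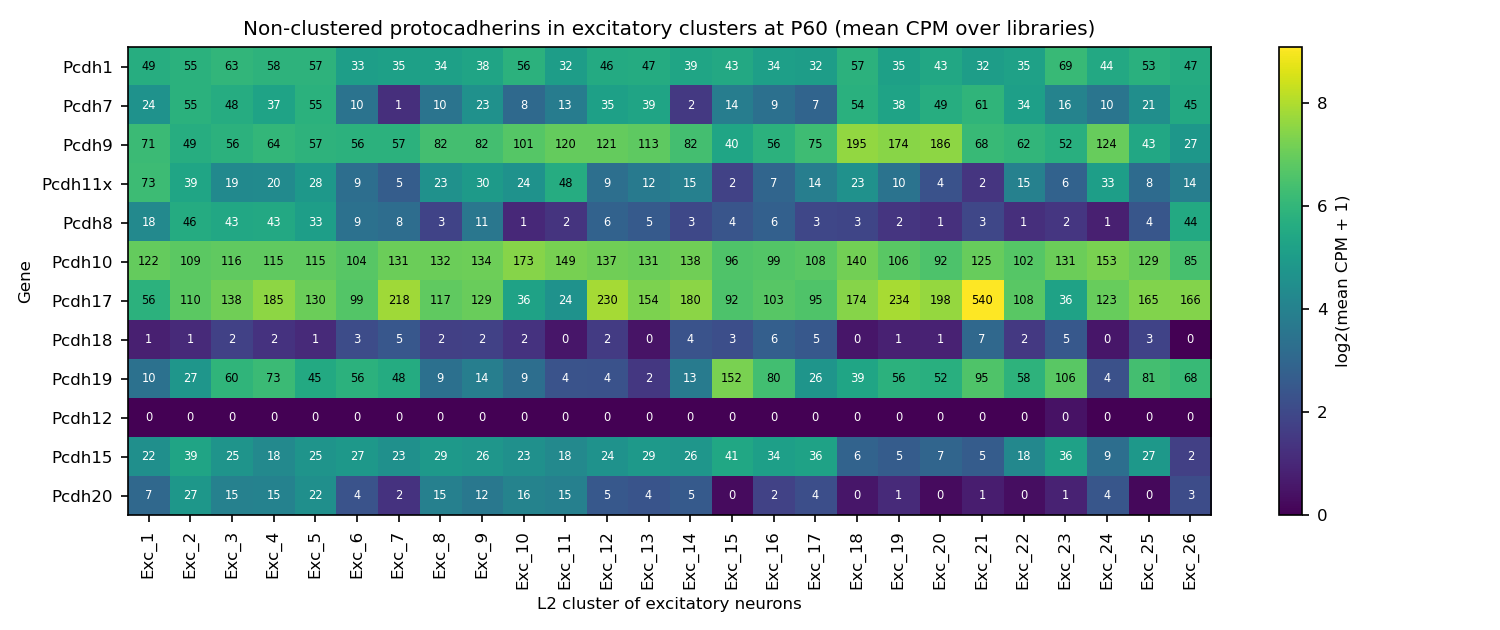
Level of the 12 protocadherin genes outside the gene clusters (rows) in the 26 excitatory clusters (columns) at P60, as the mean CPM over libraries on a log color scale. Pcdh10 is even across clusters, whereas Pcdh17 peaks in Exc_21 (540 CPM), Pcdh19 in Exc_15 (152 CPM) and Pcdh9 in Exc_18 and Exc_20 (195 and 186 CPM).

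Other delta genes followed other clusters. Pcdh19 ranged from 152 ± 25.1 CPM in Exc_15 to 1.74 ± 2.46 CPM in Exc_13. Pcdh9 was highest in Exc_18 (195 ± 45.9 CPM) and Exc_20 (186 ± 37.8 CPM), which did not differ beyond their spread, and measured 174 ± 27.3 CPM in Exc_19. All 3 clusters carried the layer 6 markers Foxp2 (119.3 to 172.2 CPM) and Syt6 (75.4 to 112.3 CPM). Pcdh8 was near 45 CPM in Exc_2 (46.5 ± 21.9 CPM) and Exc_26 (44.4 ± 14.3 CPM) and 0.725 ± 1.18 CPM in Exc_24. By contrast Pcdh10 only ranged from 85.2 to 173 CPM, Pcdha4 from 97.3 to 163 CPM and Pcdhga9 from 129 to 247 CPM over the 26 clusters. The ratio of the highest cluster to the median cluster was 10.9 for Pcdh8, 5.11 for Pcdh11x and 4.18 for Pcdh17, but 1.40 for Pcdh10 and 1.29 for Pcdha4.

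The age comparison asked which protocadherins differ between P21 and the P60 saline mice within a class. It used edgeR's quasi-likelihood test on UMI sums per library, and a gene was called when its adjusted p (Benjamini-Hochberg, over all genes) was below 0.05 and its fold difference above 1.5. In Exc, 30 members passed the filter on low counts and 1 was called, Pcdhb18, lower at P60, where 19.3% of the 13245 genes tested were called and 11.1% were lower. Over the 7 classes tested 7 of 81 pairs of member and class were called, where 11.9% of all gene and class pairs were. When the class was taken from the separate CellType column of the annotation, 18 of 94 were called, where 16.4% of all pairs were. Pcdhb18 measured 2.27 to 2.68 CPM in the 3 P21 libraries and 0.483 to 1.97 CPM (median 1.38) in the 6 saline libraries, a difference of -0.85 ± 0.27 (log2, SE) with adjusted p = 0.0233. The call was lost without P21 library 2 or 3 (adjusted p = 0.056 and 0.078).

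Several abundant members differed in Exc by less than the fold limit. Without that limit 8 of 30 members passed, against 40.4% of all genes, 7 of them lower at P60. The alpha cluster (Pcdha4) measured 180.1, 207.2 and 213.0 CPM at P21 and 117.9 to 142.4 CPM (median 129.9) in the saline libraries, with no overlap (log2 -0.56 ± 0.08, adjusted p = 0.000172). Pcdh17 went from 211.1, 212.5 and 218.8 CPM to 103.2 to 163.8 CPM (-0.58 ± 0.13, adjusted p = 0.0031). It lay near the fold limit and passed it in 5 of the 9 settings that left out a library (-0.59 to -0.65). All 3 P21 libraries lay above all 6 saline libraries for both genes, and the share of all genes separated in this way is not given here. Pcdh11x (-0.50, adjusted p = 0.0028) and Pcdh19 (-0.40, adjusted p = 0.0117) showed the same separation, and Pcdhb9 was the member higher at P60 (0.57, adjusted p = 0.0061). Pcdhga9 did not pass (-0.14, adjusted p = 0.136), and the summed Pcdhb level was 60.0 ± 2.25 CPM at P21 and 59.5 ± 2.00 CPM in the saline libraries. By the authors' labels the excitatory class differed in makeup between the ages as well. The paper assigned P21 cells to the P60 clusters by correlation, and the part of that assignment in these shares was not tested. Exc_20, high in Pcdh9, was 8.34% of excitatory cells at P21 and 1.40% in the saline libraries, and Exc_18 was 6.34% and 1.85%. In Exc the layer 6 markers Foxp2 and Syt6 summed to 74.5 ± 8.90 CPM at P21 and 20.4 ± 7.47 CPM at P60, and the layer 2/3 markers Cux2 and Calb1 to 236 ± 43.1 CPM and 140 ± 26.4 CPM, and their part in the differences of the class was not tested. The median difference was -0.11 over the members tested and -0.005 over all genes.

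In Inhib, 4 of 16 members tested were called, all lower at P60, where 14.0% of genes were called and 8.29% were lower. Pcdha4 measured 257.1, 294.9 and 310.2 CPM at P21 and 154.6 to 190.1 CPM (median 170.9) in the saline libraries (log2 -0.73 ± 0.12, adjusted p = 0.000442). Pcdh17 measured 250.7, 236.8 and 273.9 CPM against 82.5 to 201.6 CPM (-0.82 ± 0.18, adjusted p = 0.0056). Pcdh11x measured 40.7, 33.0 and 37.8 CPM against 3.44 to 29.4 CPM (-1.26 ± 0.31, adjusted p = 0.0104). In these 3 genes P21 and saline libraries did not overlap, and the share of all genes separated in this way is not given here. Pcdh7 measured 40.7, 51.9 and 49.9 CPM against 17.1 to 59.4 CPM (-1.12 ± 0.22, adjusted p = 0.0021). Here saline maintenance library 1, with 19 inhibitory cells, lay above all P21 libraries while the other 5 lay at 23.8 CPM or lower. The median over the members tested was -0.54, and over all genes it was 0.002.

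**Figure D3:**
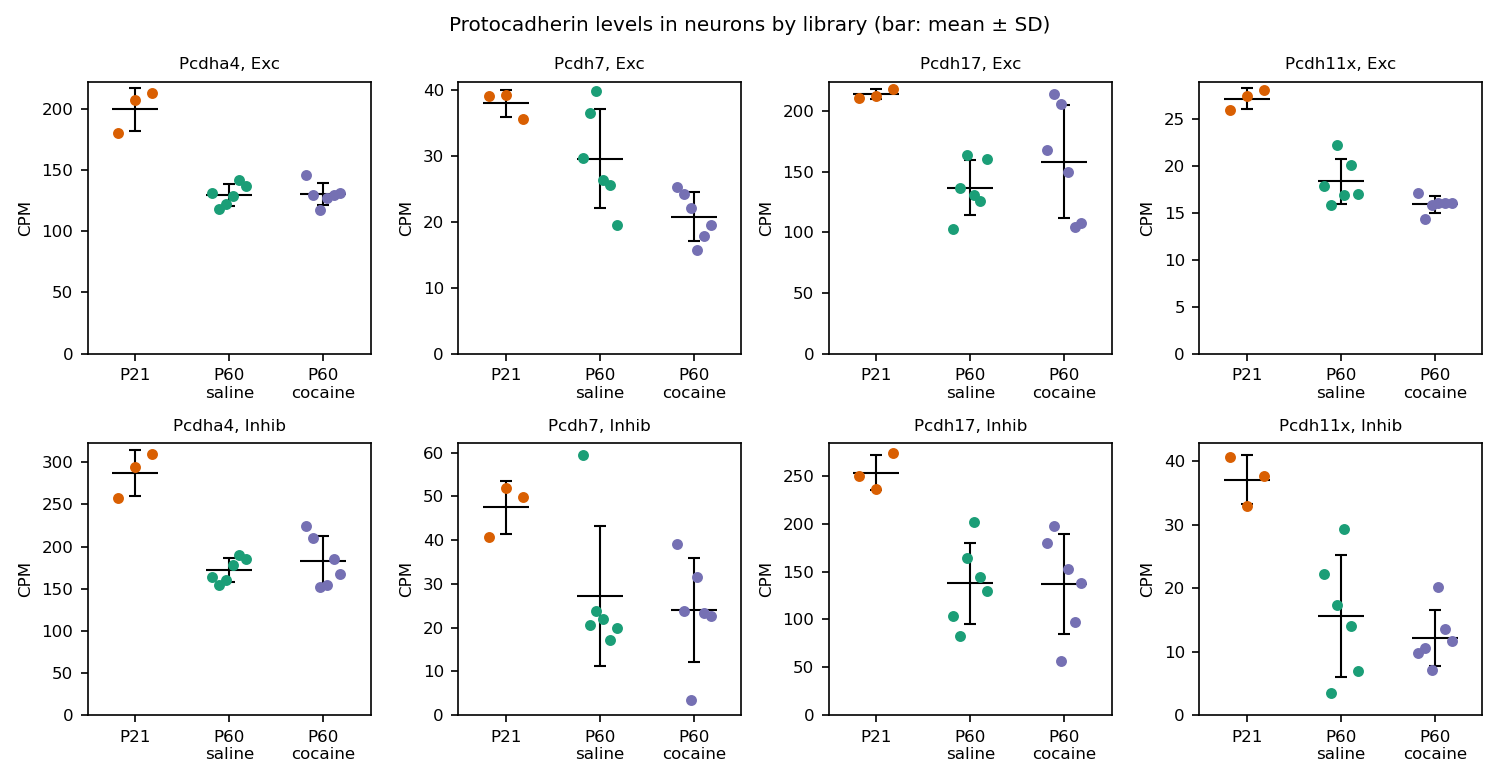
Level (CPM) of Pcdha4, Pcdh7, Pcdh17 and Pcdh11x in each library of excitatory and inhibitory neurons, for P21, P60 saline and P60 cocaine, with bars for the mean ± SD. The 3 P21 libraries of Pcdha4 lie above all saline libraries in both classes, and 1 saline library of Pcdh7 in Inhib, with 19 cells, stands alone at 59.4 CPM.

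By the same labels, assigned to P21 cells by correlation, the inhibitory class differed in makeup between the ages. Inhib_2, the highest in Sst (23290 CPM) of the 5 inhibitory clusters with enough cells for levels, was 35.4% of inhibitory cells at P21 and 7.82% in the saline libraries, and Inhib_7 (Sst 532, Pvalb 230 and Reln 128 CPM) was 7.90% and 35.7%. In Inhib_2 all 4 genes lay below 0 and none was called, with Pcdh11x at -0.78 (adjusted p = 0.465) and Pcdh7 at -0.34 (adjusted p = 0.739). Pcdh11x was tested in no other inhibitory cluster. Across clusters Pcdha4, Pcdh17 and Pcdh7 did not follow 1 pattern. Pcdha4 was lower at P60 in Inhib_7 (350 ± 74.8 CPM to 203 ± 24.0 CPM, log2 -0.73, adjusted p = 0.0372). This call was lost with DESeq2 and without P21 library 2 or 3, saline withdrawal 48 h library 1 or 2 or saline withdrawal 15 d library 1. At a minimum of 30 cells too few P21 libraries of Inhib_7 remained for a test. Pcdha4 measured 259 and 170 CPM in Inhib_2 (-0.61, adjusted p = 0.223), and it measured 145 and 144 CPM in Inhib_9 (0.05, adjusted p = 0.970). Pcdh17 measured 293 and 197 CPM in Inhib_2 (-0.56, adjusted p = 0.322) but 99.4 and 142 CPM in Inhib_7 (0.31, adjusted p = 0.603). Pcdh7 was at 0 in all P21 libraries of Inhib_7 and at 8.88 ± 5.02 CPM in its saline libraries, and it measured 72.7 and 62.4 CPM in Inhib_2. Inhib_2 thus had the higher means of Pcdh7 and Pcdh17 at either age. The part of the differing makeup, or of the label assignment, in the class result was not tested.

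In Endo, 1 of 13 members was called where 12.7% of genes were. Pcdh12 measured 25.1, 16.8 and 21.9 CPM at P21 (177 UMIs) and 0 to 4.47 CPM (median 2.53, 21 UMIs) in the saline libraries, a log2 difference of -3.22 ± 0.39 (adjusted p = 6.1e-05). Per 1000 CPM of the endothelial markers it was 2.92 to 6.01 at P21 and 0 to 0.996 in the saline libraries. Cdh5, the cadherin of endothelial junctions, measured 294.8 to 304.4 CPM at P21 and 295.5 to 358.4 CPM in the saline libraries. The Pcdh12 difference was therefore not accompanied by a lower level of Cdh5, while the mural markers stood at 4336 ± 435 CPM at P21 and 6335 ± 958 CPM at P60. Pcdh1 was higher at P60 under the fold limit (49.97 to 55.7 CPM against 62.6 to 103.9 CPM, log2 0.51, adjusted p = 0.0272), and Pcdh19 (-0.19, adjusted p = 0.351) and Pcdh18 (-0.40, adjusted p = 0.141) did not pass.

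In the oligodendrocyte lineage, 1 of 7 members tested in NF Oligo was called, where 1.94% of genes were. Pcdhb9 measured 4.23, 7.70 and 5.91 CPM at P21 and 16.0, 85.0, 122.2, 42.8 and 40.1 CPM in the 5 saline libraries with enough cells (log2 3.24 ± 0.56, adjusted p = 0.0061). No saline library was as low as any P21 library, but the saline values spread over a wide range. The call was lost at a minimum of 30 cells (2.85, adjusted p = 0.092), and DESeq2 gave this gene no adjusted p. The summed Pcdhb level in NF Oligo was 58.3 ± 8.42 CPM at P21 and 162 ± 58.2 CPM in the saline libraries. Markers of precursors in this class were at 197 ± 36.9 CPM at P21 and 279 ± 91.0 CPM at P60, and markers of mature oligodendrocytes at 4832 ± 2118 CPM and 3128 ± 1453 CPM; their part in the result was not tested. In Oligo 0 of 5 members were called (17.8% of genes). Pcdh9 had the lowest adjusted p there, at 643.5, 497.9 and 475.5 CPM at P21 and 342.0 to 452.0 CPM in the saline libraries (log2 -0.57 ± 0.14, adjusted p = 0.0069). It passed the fold limit without P21 library 2 or 3, saline withdrawal 48 h library 1 or saline withdrawal 15 d library 2 (-0.59 to -0.67). Pcdh7 in Oligo differed by more (-0.93 ± 0.35, adjusted p = 0.067). It was called with no filter on low counts, with all 12 P60 libraries and without either saline withdrawal 15 d library. In Astro 0 of 8 members were called (1.11% of genes), with Pcdh9 at 34.9 to 60.3 CPM at P21 and 73.2 to 133.8 CPM in the saline libraries (1.03 ± 0.28, adjusted p = 0.1). This gene passed with all 12 P60 libraries (0.98, adjusted p = 0.035), with no filter on low counts (1.05, adjusted p = 0.047) and without P21 library 1 (1.59, adjusted p = 0.028). In microglia 0 of 2 members were called (0.726%). OPC had 41 cells at P21 and could not be tested with this class. The result for microglia and OPC turned on the annotation, in which 492 cells (459 of P21) had another class by the CellType column. With that column 5 of 5 members tested were called by age in microglia (Pcdha4, Pcdhga9, Pcdh9, Pcdh10 and Pcdh17, all lower at P60, the last at -2.64, adjusted p = 0.0052), where 42.4% of all genes were called. In OPC 2 of 9 were called, Pcdha4 lower (-1.33) and Pcdh15 higher (1.09), where 20.4% of all genes were.

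**Figure D4:**
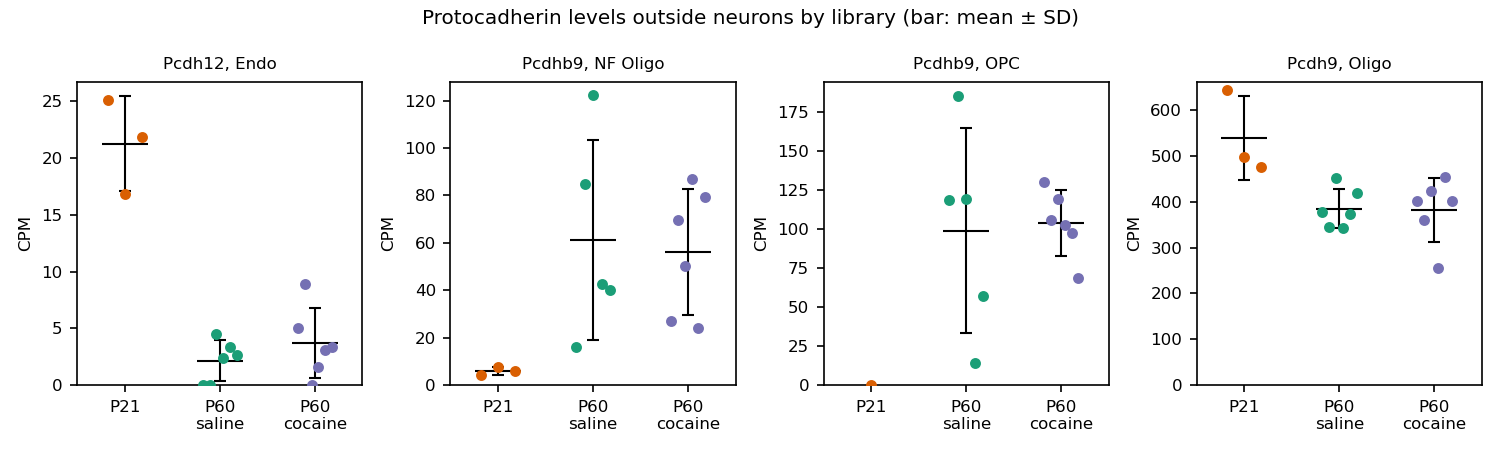
Level (CPM) per library of Pcdh12 in Endo, Pcdhb9 in NF Oligo and OPC, and Pcdh9 in Oligo, for P21, P60 saline and P60 cocaine, with bars for the mean ± SD. Pcdh12 is at 16.8 to 25.1 CPM in the P21 libraries and at most 8.94 CPM in any P60 library, and Pcdhb9 in NF Oligo is below 8 CPM at P21 and at 16.0 CPM or more at P60.

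Whether an age difference depended on the class was tested directly, as the age effect in each class minus that in Exc. For Inhib 2 of 27 members were called (7.21% of genes): Pcdh1 (-0.79 ± 0.22, adjusted p = 0.0136) and Pcdh7 (-0.72 ± 0.20, adjusted p = 0.0124). Pcdh1 measured 27.9, 24.6 and 20.7 CPM at P21 and 3.44 to 20.1 CPM in the saline libraries of Inhib, and 37.5 to 50.4 CPM and 34.2 to 53.9 CPM in Exc, so the ages did not overlap in Inhib and did in Exc. For NF Oligo 2 of 22 were called (2.88%), Pcdhb9 (2.70 ± 0.56, adjusted p = 0.000172) and Pcdha4 (1.60 ± 0.46, adjusted p = 0.0226), the latter at 7.40 to 23.1 CPM at P21 and 15.3 to 65.2 CPM in the saline libraries. For Oligo 1 of 21 was called (4.59%), Pcdh9 (-0.87 ± 0.19, adjusted p = 0.0015), whose Exc level was 71.0 ± 15.5 CPM at P21 and 81.7 ± 11.04 CPM in the saline libraries. The calls of Pcdh7 in Inhib and Pcdha4 in NF Oligo were lost with all 12 P60 libraries (adjusted p = 0.352 and 0.141) and without some single libraries, P21 library 3 among them (0.084 and 0.073). None was called for Astro (0 of 20, 0.189%), microglia (0 of 18, 1.18%) or Endo (0 of 26, 10.7%). The microglia result turned on the annotation. With the CellType column Pcdha4, Pcdhga9, Pcdh9, Pcdh10, Pcdh15, Pcdh17 and Pcdh19 were called for microglia, and Pcdhb9, Pcdhga9, Pcdh15 and Pcdh17 for OPC. The share of all genes was not counted in this setting. In Endo the difference for Pcdh12 was 1.35 (adjusted p = 0.179). In Exc, against which it was taken, the 3 endothelial markers summed to 32.6 ± 19.0 CPM at P21 and 4.00 ± 2.09 CPM at P60. The Pcdha4 differences of Inhib and Exc did not differ past the threshold (-0.19, adjusted p = 0.222).

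Age was also tested within 29 fine clusters (26 excitatory and Inhib_2, Inhib_7 and Inhib_9). P21 cells have these labels by correlation with the P60 clusters, and the part of that assignment in the differences was not tested. Over 263 pairs of member and cluster, 38 were called (14.4%), where 10.6% of 180149 gene and cluster pairs were called. Lower calls made up 35 of the 38, that is 13.3% of member pairs against 6.37% of all pairs, and higher calls 3, 1.14% against 4.25%. The clusters share libraries, so the pairs are not independent. DESeq2 called 25 pairs, and 24 were called without P21 library 3 or without saline withdrawal 15 d library 1. A minimum of 30 cells left 15 calls, with 185 pairs tested in place of 263, so some calls were lost for want of a test. Without P21 library 1, 52 pairs were called, 40 lower and 12 higher.

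Pcdha4 was lower at P60 in 14 of 29 clusters and below 0 in 28, with a median of -0.61 and called sizes of 0.60 to 0.91. Its count fell to 2 at a minimum of 30 cells (Exc_12 and Exc_25) and to 5 without P21 library 3, and DESeq2 called 10. At that minimum some clusters, Exc_13 and Exc_20 among them, had too few libraries for a test. In Exc_13, for example, it measured 179.8, 258.8 and 209.2 CPM at P21 and a mean of 115 ± 22.3 CPM in the saline libraries (log2 -0.83 ± 0.16, adjusted p = 0.0013). Pcdhga9 was called in 0 of 29 clusters, below 0 in 21, with a median of -0.21. In 5 clusters Pcdhga9 passed the adjusted p but not the fold limit (Exc_6, Exc_14, Exc_17, Exc_22 and Exc_24, by -0.45 to -0.55, adjusted p = 0.0086 to 0.038). It was called in Exc_17 and Exc_22 without saline withdrawal 48 h library 2, and in Exc_22 without either saline withdrawal 15 d library. The difference between the alpha and gamma clusters was not tested.

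The delta genes were called in fewer clusters each. Pcdh19 was lower in 4 of 20 clusters, most in Exc_17 (62.3, 78.8 and 96.3 CPM at P21, 22.01 ± 4.09 CPM in 5 saline libraries, log2 -1.78 ± 0.28, adjusted p = 6.0e-05). Pcdh11x was lower in 4 of 19 (Exc_16, Exc_19, Exc_20 and Exc_25, by 1.32 to 1.63) and below 0 in 18. Leaving out single libraries gave 2 to 5 calls for Pcdh11x (2 without P21 library 3 or saline withdrawal 15 d library 2) and 3 to 6 for Pcdh19 (6 without P21 library 1). A minimum of 30 cells left 1 call for Pcdh19, and Exc_17 and Exc_18 then had too few libraries for a test. Pcdh7 was lower in 4 of 18 clusters and below 0 in 12, with a median of -0.09. Its highest value was 0.60 in Exc_19, where it was called higher without saline withdrawal 15 d library 2. Pcdh8 was lower in 3 of 9 clusters, with all 9 below 0. None of the 4 Pcdh7 calls was left without saline withdrawal 15 d library 1, and 1 without P21 library 2 or saline withdrawal 48 h library 2, and in Exc_1, Exc_9 and Exc_24 its P21 and saline ranges overlapped. DESeq2 called Pcdh7 and Pcdh8 in 1 cluster each, and Pcdh8 was called in 1 without P21 library 3 or saline withdrawal 15 d library 1. Pcdh10, Pcdh15 and Pcdh17 were each lower in 2 clusters, and Pcdh17 was below 0 in 25 of 27. In Exc_23 Pcdh17 measured 66.2, 24.5 and 28.2 CPM at P21 and 26.8 ± 5.19 CPM in the saline libraries, with overlapping ranges. Ranges of the ages also overlapped in Exc_9 for Pcdh8 and Pcdh9. Leaving out single libraries gave 1 to 7 calls for Pcdh10 (7 without P21 library 1), 0 to 4 for Pcdh17 and 0 to 2 for Pcdh15. Pcdh9 went the other way: it was higher at P60 in Exc_9 (0.69), Exc_20 (0.78) and Exc_24 (0.79) and above 0 in 23 of 28 clusters. It was called in 11 clusters without P21 library 1 and in 1 without P21 library 2. In Exc_24 it measured 86.2, 84.1 and 68.4 CPM at P21 and 133 ± 19.97 CPM in the saline libraries (adjusted p = 0.0012). In Exc_20 both directions met, with Pcdh9 higher and Pcdha4, Pcdh11x and Pcdh17 lower. At a minimum of 30 cells too few saline libraries of Exc_20 remained for a test. Each of its 4 calls was lost without at least 1 of P21 libraries 2 and 3 and the 4 saline withdrawal libraries.

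**Figure D5:**
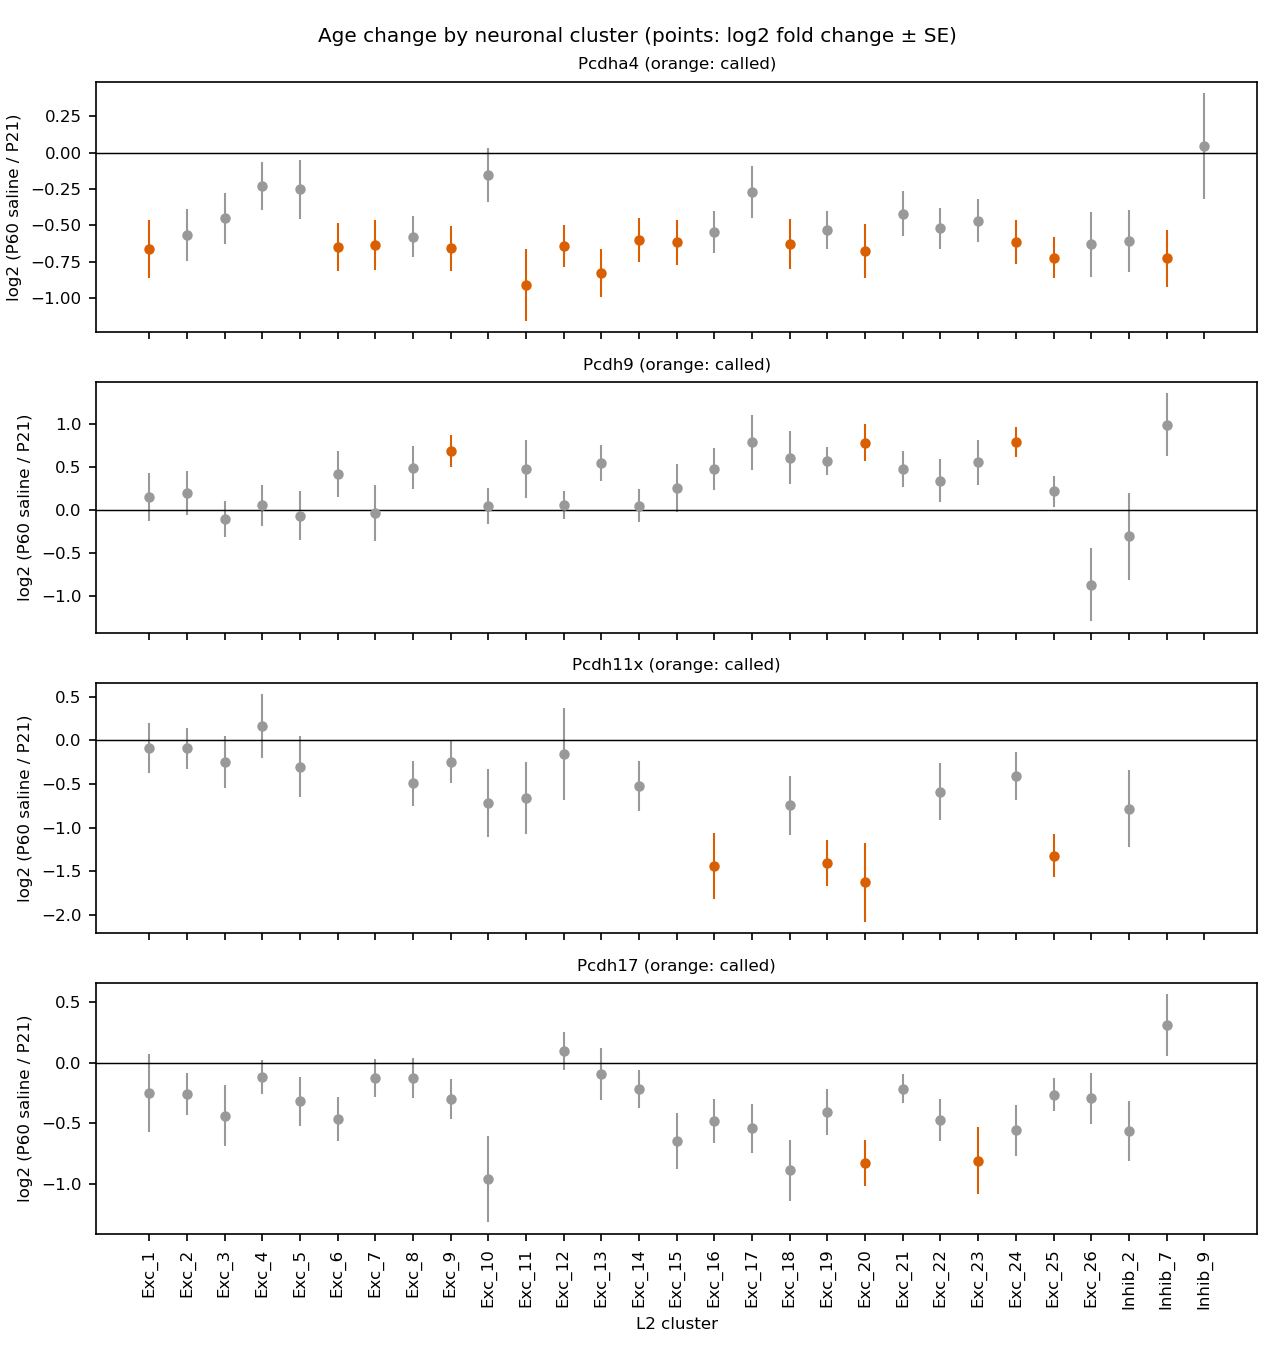
Log2 difference between P60 saline and P21 (points, ± SE) for Pcdha4, Pcdh9, Pcdh11x and Pcdh17 in each fine cluster tested, with called clusters in orange. Pcdha4 lies below 0 in 28 of 29 clusters and Pcdh9 above 0 in 23 of 28.

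Relatives and partners of the protocadherins were counted from fixed lists. Of the other cadherin superfamily genes (35 listed), 6 of 22 tested in Exc were called, 1 higher and 5 lower at P60, with a median of -0.10, where 19.3% of all genes were called. They included the type II cadherins Cdh7 (0.85) and Cdh11 (-0.68), and Cdh5 (-2.46), which is an endothelial gene. The endothelial markers given above were lower in Exc at P60 too, and their part in the Cdh5 value was not tested. In Inhib 3 of 18 were lower, where 14.0% of all genes were called (8.29% lower), namely Cdh7 (-1.17), Cdh4 (-0.91) and Cdh13 (-0.79). In Endo 4 of 11 were called (12.7% of all genes), Cdh13 (1.29) and the calsyntenin Clstn1 (0.66) higher and N-cadherin Cdh2 (-1.01) and Cdh11 (-0.97) lower, and in Astro, microglia, NF Oligo and Oligo 0 of 8, 2, 7 and 5.

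The regulators of the gene clusters (15 listed, CTCF and cohesin among them) gave 0 of 13 in Exc and 2 of 12 in Inhib, the cohesin subunits Smc3 (0.73) and Smc1a (0.83), higher at P60. In Oligo Smc1a (0.78) and Stag2 (0.76) were higher and the loader Nipbl (-0.59) lower among 8 tested, and in Endo 1 of 15 was called, Rest (-0.73). Signaling partners (21 listed) gave 3 of 20 lower in Exc (Marcks -0.79, beta-catenin Ctnnb1 -0.63 and Cdh2 -0.59). Cdh2 is in the cadherin list as well, so its calls in Exc and Endo are counted in both lists. In Inhib 2 of 18 were called, the kinase Ptk2b higher (1.83) and Marcks lower (-1.16), in Endo 3 of 19 were lower (Ret -1.51, Marcks -1.32 and Cdh2 -1.01), and in Oligo 1 of 13 (Ctnnb1 -0.80). No regulator or partner was called in Astro, microglia or NF Oligo. These calls used the same edgeR test and adjustment. They are to be read beside the shares of all genes called in either direction in the same class (Exc 19.3%, Inhib 14.0%, Endo 12.7%, Oligo 17.8%).

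Cocaine was compared with saline in each Period, with 2 libraries a group and a shared estimate of the spread. Astro, OPC and NF Oligo could not be tested at maintenance, where saline library 2 had 8, 3 and 0 cells of them. None of 265 member and class pairs was called over the 3 Periods by edgeR, where 0.131% of gene and class pairs were called, and DESeq2 called none either. At an unadjusted p below 0.05 there were 15 member pairs (5.66%), against 4.90% of all gene pairs. Of all genes in Exc, 0.706% were called at 15 d and 0 at the other Periods. In Inhib it was 0.0115% at 48 h and 0.84% at 15 d, in Endo 0.0199% and 0.139%, and in OPC 0.0339% and 0.0847%. At 15 d it was 0.0135% in Astro, 0.0553% in NF Oligo and 0.264% in Oligo, and in microglia calls were made at maintenance (0.096%). In the 5 classes tested at every Period, the mean over Periods and the treatment by Period interaction gave 0 of 69 member pairs each. The mean called 0.0466% of genes in Oligo and the interaction 0.0691% in Inhib. No gene of the 3 lists was called in any class.

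Pcdha4 in Exc lay at 117.8 to 146.4 CPM over all 12 P60 libraries, and its 6 saline libraries covered 117.9 to 142.4 CPM of this range. Some differences in Exc are named after their values were seen. Pcdh7 differed at 48 h (-0.83 ± 0.22, adjusted p = 0.770) and on average over the Periods (-0.51 ± 0.13, adjusted p = 0.325). Pcdh18 differed at 48 h (0.93 ± 0.30, adjusted p = 0.907). The clustered members Pcdhb18 (1.23 ± 0.54) and Pcdhb13 (0.97 ± 0.42) differed by more at maintenance, each with adjusted p = 0.735. None of these passed. Pcdh7 at 48 h and Pcdh17 at maintenance were called with no filter on low counts. Over Pcdh17, Pcdh10 and Pcdh9 in Exc the log2 differences ran from -0.39 to 0.64 (lowest adjusted p = 0.735), and over Pcdh17, Pcdh10 and Pcdh8 in Inhib from -0.62 to 1.11 (lowest adjusted p = 0.956). Over Pcdh19, Pcdh1 and Pcdh18 in Endo they stayed within -0.23 to 0.19, and over Pcdh15, Pcdh17 and Pcdh9 in OPC within -0.22 to 0.57. The 3 members with the most UMIs outside the gene clusters ranged from -0.37 to 0.24 in Astro, from -0.62 to 0.46 in Oligo, from -1.31 to 0.08 in NF Oligo and from -0.94 to 2.18 in microglia, with lowest adjusted p of 0.994, 0.964, 0.998 and 0.9997. These p-values do not show that the groups were alike.

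Within fine clusters, 1 of 732 member pairs was called in 54 clusters (0.137%), where 0.478% of 544195 gene and cluster pairs were called (0.0126% at maintenance, 0.0083% at 48 h and 1.07% at 15 d). This was Pcdh17 in Exc_3 at maintenance, higher with cocaine. The cocaine libraries measured 191.1 and 205.1 CPM (42 and 23 cells) and the saline libraries 55.0 and 54.6 CPM (13 and 29 cells), a log2 difference of 1.80 ± 0.30 (adjusted p = 0.00025). Of all genes in Exc_3, 0.047% were called at maintenance and 0.831% at 15 d. The saline maintenance libraries were the low ones: the other P60 libraries of Exc_3 lay at 110.5 to 176.6 CPM and the P21 libraries at 144.8 to 194.5 CPM. The call was lost without saline maintenance library 2 (1.81, adjusted p = 0.567), where the single remaining saline library was assumed to vary like the other groups, and at a minimum of 30 cells too few libraries remained for a test.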

How the data were processed

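Libraries were made with the 10x Chromium system, and per the labels tissue of 2 animals was pooled for each. The authors deposited UMI counts per gene and cell, made with Cell Ranger (mm9; the submitters' processing notes give version 13.1, which is not the version in the study's methods) and analyzed in Seurat 2.1.0, and a table with each cell's mitochondrial fraction, sample, CellType and L2_clusters. Doublets were removed by the authors before annotation. Here the counts of annotated cells were summed per library and class or fine cluster, the class being the family of the fine cluster. CPM leave out 13 mitochondrial and 143 ribosomal protein genes. Libraries with at least 10 cells entered edgeR 4.0.16 (TMM, filterByExpr, robust quasi-likelihood), with Benjamini-Hochberg adjustment over all genes tested and a call below 0.05 at more than 1.5-fold. DESeq2 1.42.0 served as an alternative. Scripts were tested on simulated data. The cells of a class share libraries, and no label says that libraries are separate cohorts, so p-values measure the spread between these libraries. Free RNA was not removed. The members and lists were chosen with earlier results of these data known. Named genes are the members outside the gene clusters, the 5 clustered members highest in excitatory neurons and the highest in each other class, every member called, the 3 most abundant members outside the gene clusters in each class comparison, members called in at least 2 fine clusters, and at most 4 called genes per list. Most other members are named by range.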

Additional observations from a re-analysis of the deposited data

Results flagged for a closer look

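Of 30 groups of 5 or 6 P60 saline libraries tested for a library far from the others, 3 had one, and chance flags about 1 in 20. Saline maintenance library 1, with 19 inhibitory cells, had 59.4 CPM of Pcdh7 in inhibitory neurons, where the next library had 23.8 CPM. Saline withdrawal 48 h library 1 had 99.9 CPM of Pcdh17 in astrocytes, below the next at 107.0 CPM. That gap was 0.732 of the range of the 5 saline libraries, which was therefore narrow. Saline withdrawal 48 h library 2 had 11.03 CPM of Pcdh10 in oligodendrocytes, below the next at 30.03 CPM.

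The age effect (P60 saline minus P21, log2) differed between excitatory neurons and another class for 5 members by the edgeR test of the difference. In inhibitory neurons it was lower by 0.79 for Pcdh1 (-0.79, adjusted p = 0.0136) and by 0.72 for Pcdh7 (-0.72, adjusted p = 0.0124). In newly formed oligodendrocytes it was higher by 1.60 for Pcdha4 (adjusted p = 0.0226) and by 2.70 for Pcdhb9 (adjusted p = 0.000172). In oligodendrocytes the difference was -0.87 for Pcdh9 (adjusted p = 0.0015).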

How the results depend on the processing

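Depth limits the Pcdhb genes outside Exc, few of which passed the filter on low counts, and OPC, with 41 cells at P21. No paired analysis was possible because the replicate numbers follow accession order at P60 and only name samples at P21. Alternatives chosen after seeing the data were the CellType column, P21 libraries summed in pairs, and leaving out libraries for the fine clusters and the class differences. The 7 age calls by class became 12 with all 12 P60 libraries, 18 with the CellType column, 14 with no filter on low counts and 16 with no fold cutoff. They ranged from 7 to 13 when a library was left out, 13 without P21 replicate 1 and 12 without saline withdrawal 48 h replicate 1. DESeq2 called 6 and gave no adjusted p for Pcdhb9 in NF Oligo (3.365). That call was lost at a minimum of 30 cells (2.85, adjusted p = 0.092), and Pcdhb18 in Exc with P21 libraries 2 and 3 summed (adjusted p = 0.053). The 38 age calls in fine clusters became 25 with DESeq2 and 15 at a minimum of 30 cells, where 185 pairs were tested in place of 263. Without single libraries they ranged from 24 (without P21 replicate 3 or saline withdrawal 15 d replicate 1) to 52 (without P21 replicate 1). The 5 differences between classes became 15 with the CellType column and 7 with all 12 P60 libraries, and ranged from 4 to 6 when a library was left out. Among them Pcdh7 in Inhib was lost with all 12 P60 libraries (-0.38, adjusted p = 0.352) and without P21 replicate 2 or 3 or saline withdrawal 15 d replicate 1 (adjusted p = 0.051, 0.084 and 0.091). Pcdha4 in NF Oligo was lost in 7 settings, with the CellType column among them (0.05, adjusted p = 0.970). Cocaine against saline by class went from 0 calls to 2 with no filter on low counts, Pcdh17 in Exc at maintenance and Pcdh7 in Exc at 48 h, and the 1 call in fine clusters to 0 at a minimum of 30 cells.

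Signs turned only for members that were not called. Leaving out a library gave these log2 ranges for age: -0.25 to 0.15 for Pcdh17 in Astro, -0.19 to 0.11 for Pcdh17 in Oligo (0.020 with P21 libraries 1 and 3 summed) and -0.59 to 0.44 for Pcdh9 in NF Oligo. For cocaine at maintenance they were -0.065 to 0.048 for Pcdh10 in Exc, -0.081 to 0.068 for Pcdh9 in Exc, -0.65 to 0.46 for Pcdh10 in Inhib and -0.49 to 0.37 for Pcdh8 in Inhib. At 48 h the range was -1.655 to 0.20 for Pcdh10 in Inhib, and at 15 d -0.10 to 0.37 for Pcdh10, -0.49 to 0.024 for Pcdh17 and -0.17 to 0.35 for Pcdh8, each in Inhib. The cause of these changes was not tested.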
